A study of Mus musculus with 3 samples.

Results

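The subunits of the mitochondrial respiratory chain that are encoded in the nucleus were followed in whole mouse skin before and after cyclophosphamide. Members were taken by gene symbol, namely every UniGene cluster (a group of transcripts assigned to one gene) whose symbol begins with Nduf followed by A, B, C, S or V, with Sdh a to d, with Uqcr, with Cox4 to Cox8 or with Atp5. Another 3 clusters without a symbol were taken by similarity in their deposited description. This gave 86 of the 20595 clusters listed in any table. They stand for 64 genes, of which Atp5h rests on similarity alone. Complex I held 36 of the 86 clusters, complex II 4, complex III 9, complex IV 20 and complex V 17. A further 21 genes of the rule had no cluster in the tables, among them Cox7a2, Cox6b1, Atp5g3, Ndufv2 and Sdhb. The mice were C57BL/6 males, 2 months old, and hair growth had been induced in all of them by depilation. Each of 3 groups had 1 library: untreated skin (day 0), skin 1 day and skin 2 days after 150 mg/kg cyclophosphamide into the peritoneum. The injection came 9 days after depilation, and the dose per kg is that of the series text, since the sample labels write "km". Skin without drug was profiled for day 0 alone, so the drug cannot be told apart from the 1 or 2 added days of hair growth. Neither the number of mice per library nor any pooling is given in the sources used here.

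The respiratory chain sits in the inner mitochondrial membrane. Complex I takes electrons from NADH and complex II from succinate, complex III passes them to cytochrome c and complex IV passes them to oxygen, while complex V, the ATP synthase, makes ATP from the proton gradient that complexes I, III and IV build. A few subunits of complex IV exist as pairs of isoforms from separate genes, one found in most tissues and the other in skeletal and heart muscle. Whole mouse skin holds epidermis, hair follicles, fat and a sheet of skeletal muscle, so both kinds of isoform can be measured in it.

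Transcripts were counted through 21-base tags that start at a CATG, the site cut by NlaIII, and the tags of the clusters on which the results turn are shown here 5′ to 3′. Capitals mark the CATG and lower case the 17 bases after it.
Cox8b: CATGtccatctgcctaaaaaa
Cox8a: CATGtattggctctgcttggt
Cox6a2: CATGgaggggcaggagccaac
Cox6a1: CATGtgaacccacttccgacc
Cox7a1: CATGacgctgactctgggggg
Cox6b2: CATGaatcgccgcggaaagag
Atp5j: CATGaattagttgtacaacta
Atp5g2: CATGgttctttcgtgtctcgt
Atp5e: CATGgttcactttcaaaaaaa
Ndufv1: CATGagagctgtggccagtgt
Uqcrh: CATGcacgggaccactgtgtg
Uqcrh exon 1: CATGggactagaggacgaacg
Ndufb8 exon 4: CATGttctgggtagggcacgt
Ndufb8 exon 5: CATGcctgaaactcaaccgaa

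Their places on the mouse genome (GRCm38) differ in kind. The Cox8a tag lies in the 3′ UTR (chr19:7215202-7215222, exon 2 of 2), and so do those of Atp5j (chr16:84827907-84827927, exon 5 of 5) and Atp5g2 (chr15:102662968-102662988, exon 5 of 5). Coding sequence holds the tags of Cox6a1 (chr5:115345861-115345881, exon 3 of 3), Cox6b2 (chr7:4752119-4752139, exon 2 of 3) and Ndufv1 (chr19:4008064-4008084, exon 8 of 10). Those of Cox6a2 (chr7:128206032-128206238, exons 1 and 2) and Cox7a1 (chr7:30185340-30185912, exons 3 and 4) cross a splice junction in coding sequence. The main Uqcrh tag also crosses one (chr4:116067170-116069880, exons 3 and 4), and the second lies at the start of the coding part (chr4:116074950-116074970, exon 1 of 4). All of these are on the minus strand except that of Cox7a1. The Cox8b tag has 13 of its 21 bases at the annotated end of the transcript (chr7:140898945-140898957, 3′ UTR) and runs past it into adenines, so the name rests on those bases and on 3 copies of an exact Cox8b tag in the same cluster. Likewise, the Atp5e tag has 14 bases at the end of an Atp5e transcript (chr2:174461075-174461088) before its adenines. Of 83 members with a placed main tag, 38 had it at the last CATG of the transcript and 45 upstream of that. How well a site is captured differs between sites, and levels are therefore compared between libraries and not between genes.

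The libraries of days 0, 1 and 2 had 2731787, 2859653 and 2636804 tags in the tables. Levels are counts per 1000000 tags (CPM) in libraries scaled to a trimmed mean of log ratios (TMM). The tags of 2 libraries were compared in an exact conditional binomial test, Benjamini-Hochberg adjusted over 13812 clusters with 15 or more tags, and a cluster was called higher or lower where the adjusted p was at most 0.001 and the ratio at least 2-fold. This test compares libraries and not conditions, no difference has a replicate check, and the 95% intervals (Clopper-Pearson) cover counting error only. In whole skin, fewer cells of a type and less RNA per cell cannot be told apart. Markers of several tissues moved between the libraries. Summed levels of fast skeletal muscle genes were 13456, 20737 and 26862 CPM, of red cell genes 1833, 1655 and 144 CPM, of dermal fibroblast genes 2981, 1903 and 3320 CPM, and of macrophage genes 239, 266 and 581 CPM. White fat genes summed to 4463, 3288 and 2687 CPM, most of it from Fabp4 (3346, 2197 and 1708 CPM). Of the 10 white fat clusters tested, 5 were higher and 5 lower at day 1, and at day 2 Lep rose (6.04, 17.1 and 19.5 CPM) and 0 were called lower. Epidermal keratinocyte markers, which define the labelled tissue, were present at 12206, 16448 and 15513 CPM.

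Most subunits differed little between the days. The summed level of all 86 clusters was 19781 CPM (19617 to 19946) at day 0, 20812 CPM (20640 to 20985) at day 1 and 19166 CPM (19002 to 19331) at day 2. As log2 ratios over day 0 the sum stood at 0.07 at day 1 and -0.05 at day 2, beside 0.13 and -0.004 for the sum of all clusters tested. The order of the days depended on the scaling. Scaled by all tags the authors kept, the sums were 19926, 19910 and 19884 CPM, and scaled by all tags in the tables they were 20371, 19574 and 19788 CPM, lowest at day 1. Of the 69 clusters tested, 1 rose and 2 fell at day 1 against day 0, where 1.44% of all clusters tested rose and 1.35% fell. At day 2 against day 0, 3 rose and 2 fell, where 3.41% of all clusters rose and 3.03% fell. At day 2 against day 1, 1 rose and 0 fell, where 1.8% of all clusters rose and 1.1% fell. The other 17 clusters had fewer than 15 tags in all.

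Changes of 1.5-fold either way were commoner. At day 1, 9 of 69 members were at least 1.5-fold higher and 11 lower, beside 15.7% and 18% of all clusters. At day 2 against day 0, 7 were higher and 16 lower, beside 19.5% and 18.9%. Between days 1 and 2, 5 were higher and 7 lower, beside 17.9% and 14%. For abundant transcripts, those with a mean of 100 CPM or more, 8 of 37 members were at least 1.5-fold lower at day 2 than at day 0, beside 14.7% of 1660 such clusters, and 4 of 37 were higher, beside 12.3%. The median log2 ratio of the members was 0.04 at day 1 and -0.12 at day 2, beside -0.02 and 0.01 over all clusters tested. Day 2 over day 1 gave -0.16 beside -0.02. At a mean of 100 CPM or more, day 2 over day 1 gave members -0.16 beside -0.14 for all such clusters. Over day 0, these abundant members stood at 0.07 at day 1 and -0.10 at day 2, beside 0.10 and -0.03. The sign of the day 1 median of all 69 members depended on the scaling. It was -0.04 with libraries scaled by all tags the authors kept and -0.09 with all tags in the tables. Those scalings also moved the median of all clusters, to -0.09 and -0.15. For day 2 over day 1 they gave members -0.05 and -0.03, beside 0.10 and 0.12 for all clusters.

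By complex, the sums went in different directions. Complex I stood at 4878, 5437 and 4608 CPM at days 0, 1 and 2, highest at day 1. The log2 ratio of this sum at day 1 over day 0 was 0.16. That of the sum of all clusters tested was 0.13, and 0.19 for those with a mean of 100 CPM or more. For complex II the levels were 411, 303 and 336 CPM, and for complex III 1647, 1661 and 1411 CPM. Complex IV was at 5346, 5579 and 5087 CPM, and complex V at 7499, 7832 and 7724 CPM. Within the complex V sum, Atp5e alone made up 1337, 2285 and 2166 CPM. Of the 15 complex V clusters tested, 9 were lower at day 1 than at day 0, and 10 were lower at day 2. Scaled by all kept tags or by all tags in the tables, complex I was still highest at day 1. The ratio of its sum at day 1 over day 0 was then 0.08 and 0.03, beside 0.06 and 0.001 for all clusters tested. Complexes III, IV and V were lower at day 1 than at day 0 under these 2 scalings. Median log2 ratios at day 2 over day 0 were -0.08 for the 30 tested clusters of complex I, -0.30 for the 2 of complex II, -0.25 for the 7 of complex III, 0.10 for the 15 of complex IV and -0.23 for the 15 of complex V. These signs held under the 4 other scalings. At day 1 the medians were 0.07, -0.21, -0.43, 0.08 and -0.02 in the same order, and those of complexes I, IV and V changed sign with the scaling.

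**Figure D1:**
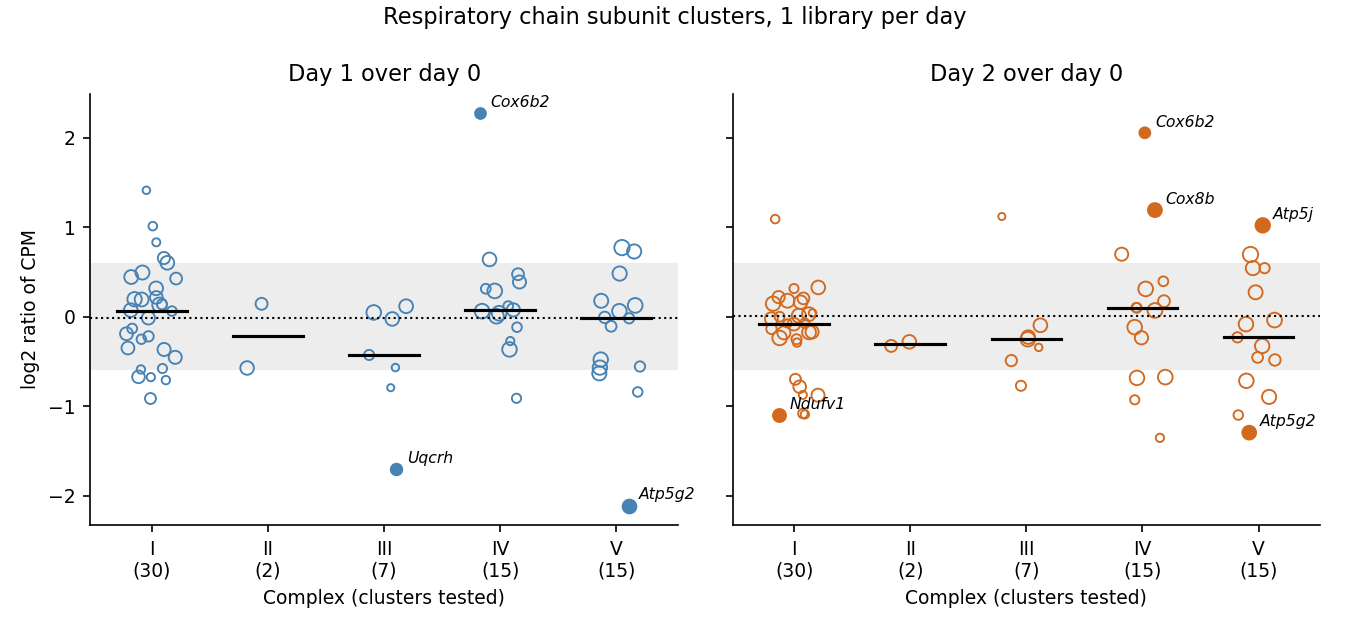
Log2 ratio of CPM for each respiratory chain cluster tested, by complex, at day 1 (left) and day 2 (right) over day 0. Each circle is 1 cluster and grows with its mean CPM, filled circles were called, black bars are medians, the dotted line is the median of all 13812 clusters and the grey band spans 1.5-fold either way. Most circles lie inside the band, Cox6b2 is the highest circle at both days, and Atp5g2 is the lowest at day 1.

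Complex IV, cytochrome c oxidase, held the isoform pairs. The muscle isoform Cox8b rose, while its widely expressed partner Cox8a did not. Cox8b was at 203, 317 and 465 CPM at days 0, 1 and 2 (572, 853 and 1266 tags), higher at each later day. Its log2 ratio was 0.64 (0.49 to 0.80) at day 1, short of 2-fold, and 1.19 (1.05 to 1.34) at day 2, where it was called (adjusted p = 3.8e-63, exact test). Cox8a was at 1045, 1091 and 654 CPM, level between days 0 and 1 and lowest at day 2. Its ratio at day 2 over day 0 was -0.68 (-0.76 to -0.59), under 2-fold. Both encode subunit VIII, a small membrane-spanning chain of the oxidase. Cox8b made up 16.2% (15.02 to 17.49) of the tags of this pair at day 0, 22.4% (21.1 to 23.8) at day 1 and 41.4% (39.7 to 43.2) at day 2, with no overlap of the intervals.

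Subunit VIa showed the same order on a smaller scale. The muscle form Cox6a2 was at 135, 177 and 220 CPM, with log2 ratios of 0.39 (0.19 to 0.59) at day 1 and 0.70 (0.51 to 0.89) at day 2. Its partner Cox6a1 was at 216, 228 and 183 CPM, with ratios of 0.08 (-0.09 to 0.24) and -0.24 (-0.41 to -0.06). Neither was called. Cox6a2 made up 38.6% (35.5 to 41.7) of the pair's tags at day 0, 43.8% (40.8 to 46.8) at day 1 and 54.5% (51.5 to 57.5) at day 2. The 2 forms are read at different sites, so the share is compared between days and does not say which form was the more abundant. With all tags, the intervals of days 0 and 1 overlap and that of day 2 stands apart. At the 3′-most sites alone, those of days 0 and 1 do not overlap. A share within a library does not depend on the scaling. The third muscle isoform, Cox7a1 of subunit VIIa, was at 46.2, 64.3 and 52.2 CPM, with ratios of 0.48 (0.14 to 0.82) and 0.17 (-0.18 to 0.53), and was not called. Its level was highest at day 1, unlike those of Cox8b and Cox6a2. The interval of its ratio at day 2 over day 1, -0.30 (-0.63 to 0.03), includes 0. No cluster of its partner Cox7a2 was listed, and no share could be formed.

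Most genes of fast skeletal muscle were higher on both treated days, as Cox8b and Cox6a2 were. Of 18 fast muscle genes 17 were listed, and of their 19 clusters tested 5 rose and 0 fell at day 1, and 8 rose and 0 fell at day 2, beside 1.44% and 3.41% of all clusters that rose. Their median log2 ratios were 0.66 at day 1 and 0.98 at day 2. Actn3, which anchors actin in fast fibres, was at 197, 412 and 751 CPM. Mylpf, a regulatory light chain of fast myosin, was at 1365, 2163 and 3491 CPM in its main cluster. The actin gene Acta1 was at 4670, 6037 and 9207 CPM and was not called, with ratios of 0.37 and 0.98. These 3 were higher at each later day, but 5 of the 19 clusters, those of Tnnt3, Eno3, Myh2, Myh4 and Tcap, were lower at day 2 than at day 1, as Cox7a1 was. Tnnt3, fast troponin T, was at 1535, 3202 and 2985 CPM, and Eno3, the muscle enolase, at 426, 671 and 581 CPM. The ratio of Cox8b at day 2 (1.19) lies above the fast muscle median and that of Cox6a2 (0.70) below it. The part of muscle RNA in the isoform changes was not tested. Of 12 slow and cardiac muscle genes 5 were listed, at 172, 148 and 125 CPM in sum, and Myh7, Myh6, Nppa and Tnni3 were not listed. Cox7a1 and Cox8b are also known from brown fat, whose marker Ucp1 was not listed in any library. The other genes of the brown fat list summed to 268, 317 and 336 CPM, most of it from Elovl3 (259, 306 and 320 CPM). Which cells of the skin their tags came from was not tested. Of 4 tested, 0 were called at either day. Cidea, a lipid droplet protein on this list, had 11, 11 and 29 tags (3.91, 4.09 and 10.65 CPM), with a ratio of 1.40 (0.40 to 2.60) at day 2. The part of brown fat RNA was not tested.

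**Figure D2:**
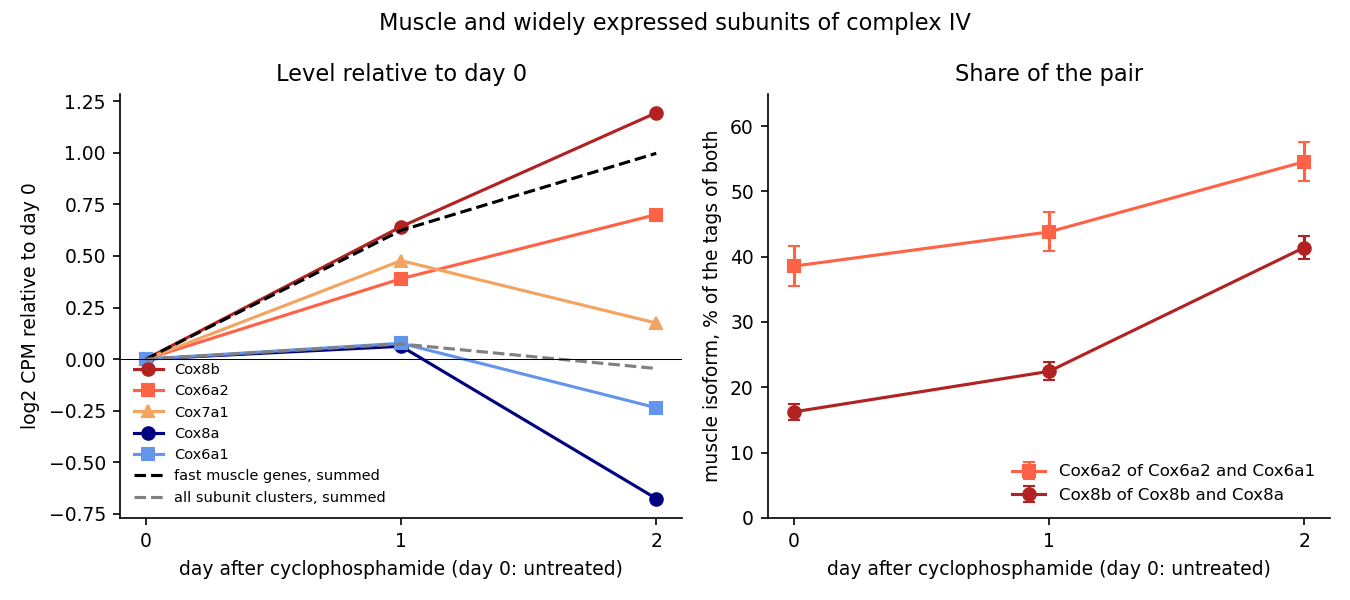
Left: log2 CPM relative to day 0 for the muscle isoforms Cox8b, Cox6a2 and Cox7a1, the widely expressed Cox8a and Cox6a1, the summed fast muscle genes and the summed subunit clusters, in 1 library per day. Right: percent of the tags of each pair that came from the muscle isoform, with 95% Clopper-Pearson intervals; Cox8b reaches 41.4% and Cox6a2 54.5% at day 2.

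The tissue-restricted isoform with the largest ratio was Cox6b2, the testis form of subunit VIb, which holds the oxidase dimer together. It was at 5.69, 28.3 and 24.2 CPM (16, 76 and 66 tags), low at day 0 and at a like level on both treated days. Its log2 ratios were 2.28 (1.52 to 3.19) at day 1 (adjusted p = 1e-09, exact test) and 2.06 (1.29 to 2.98) at day 2 (adjusted p = 1.4e-07, exact test), and it was called in both. All of its tags were the single sequence shown above, at a place where no other gene is annotated. Its widely expressed partner Cox6b1 was not listed. Cox4i2, the lung and hypoxia form of subunit IV, was at 8.89, 9.67 and 11.8 CPM and was not called. The main cluster of its partner Cox4i1, at 9.24, 11.5 and 9.92 CPM, held tags of an internal site.

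Of the abundant complex IV subunits without a tissue-restricted partner in the tables, none was called. Cox7c, a small membrane chain, was at 952, 978 and 1000 CPM, though its tag also matches a pseudogene, Gm10012. Cox7b of the same kind was at 807, 986 and 1001 CPM, with ratios of 0.29 (0.21 to 0.37) and 0.31 (0.23 to 0.39). Cox5b, which faces the matrix, was at 886, 889 and 817 CPM and shares its tag with Gm11273. Cox5a, the other matrix-facing subunit, went the other way, at 1003, 779 and 624 CPM. Its ratios were -0.37 (-0.45 to -0.28) and -0.68 (-0.77 to -0.60), under 2-fold, and the level was lower at each later day.

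Complex V carried the most tags, and its members moved both ways. Atp5g2 fell at both days and Atp5j rose at day 2. Atp5g2 is one of 3 genes for subunit c, the ring that turns as protons pass. It was at 525, 121 and 214 CPM (1477, 326 and 582 tags), lowest at day 1. The summed fibroblast genes given above were also lowest at day 1, but at day 2 they were above day 0 (2981, 1903 and 3320 CPM). Their part in the Atp5g2 levels was not tested. The log2 ratio of Atp5g2 was -2.11 (-2.29 to -1.94) at day 1 (adjusted p = 7e-161, exact test). At day 2 it was -1.30 (-1.44 to -1.16, adjusted p = 8.2e-81, exact test). Its main tag, in the 3′ UTR, also matches the pseudogene Gm10175, and the copies cannot be separated. Atp5g1, the second gene for subunit c, was at 832, 561 and 663 CPM, also lowest at day 1. Its ratios of -0.57 and -0.33 were not called. The third, Atp5g3, was not listed.

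Atp5j encodes coupling factor 6, part of the stalk that joins the catalytic head to the membrane part. It was at 399, 558 and 811 CPM, higher at each later day. The ratio was 0.48 (0.37 to 0.60) at day 1 and 1.02 (0.92 to 1.13) at day 2, where it was called (adjusted p = 8.9e-86, exact test). With the tags of a second Atp5j cluster at an exon 3 site (36, 19 and 16 tags) added, the day 2 ratio was 0.99 and under the 2-fold limit.

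Some other small subunits of the synthase stood higher in both treated libraries without reaching 2-fold. Atp5e, the epsilon subunit, had the most tags of all members, at 1337, 2285 and 2166 CPM. Its ratios were 0.77 (0.71 to 0.83) and 0.70 (0.64 to 0.76), with both treated libraries above day 0. Atp5k, subunit e of the membrane part, was at 406, 674 and 592 CPM, with ratios of 0.73 (0.62 to 0.84) and 0.54 (0.43 to 0.65). Others stood lower. Atp5mpl, a small proteolipid of the membrane part, was at 725, 468 and 390 CPM, with ratios of -0.63 and -0.90. Atp5f1, subunit b of the outer stalk, was at 975, 700 and 594 CPM, and its tag also matches Gm12231. Atp5a1 and Atp5c1 were near flat. Atp5a1 (alpha) was at 990, 1081 and 965 CPM and Atp5c1 (gamma) at 782, 816 and 738 CPM. The beta subunit Atp5b was at 43.7, 43.5 and 31.2 CPM, from an upstream site.

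In complex I, 1 of 30 clusters (3.3%) was called in any comparison, at day 2 over day 0, beside 6.4% of all clusters tested. At day 1 over day 0 and at day 2 over day 1, 2.8% and 2.9% of all clusters were called. Ndufv1, the flavoprotein that binds NADH and passes its electrons on, fell at day 2. It was at 182, 143 and 84.8 CPM, lower at each later day, with a ratio of -0.35 (-0.54 to -0.16) at day 1 and -1.10 (-1.33 to -0.87) at day 2 (adjusted p = 9.7e-22, exact test). The tag of exon 8, with 461, 356 and 210 copies, and that of exons 6 and 7, with 44, 19 and 17, were both lowest at day 2. Ndufa11, an accessory subunit of the membrane arm, was at 152, 95.2 and 88.2 CPM, with ratios of -0.67 (-0.90 to -0.45) and -0.78 (-1.02 to -0.55). Ndufs6, an accessory subunit of the matrix arm, was at 35.90, 18.96 and 22.04 CPM, from a tag that its paralog Ndufs6b shares. Its day 1 ratio of -0.91 (-1.44 to -0.42, adjusted p = 0.0016, exact test) was not called, but was called at -1.04 when libraries were scaled by all tags in the tables.

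Other complex I subunits were highest at day 1. Ndufa13, also known as a cell death regulator, was at 257, 390 and 322 CPM, with a day 1 ratio of 0.60 (0.47 to 0.74). Ndufa7, an accessory subunit, was at 61.5, 97.0 and 71.6 CPM, with 0.66 (0.38 to 0.94). All tags of Ndufa7 were the same sequence, placed on an annotated noncoding transcript of the gene that retains an intron. Ndufs3, a core subunit of the matrix arm, was at 407, 573 and 410 CPM, with 0.49 (0.38 to 0.61) at day 1 and 0.01 (-0.11 to 0.13) at day 2. Ndufa4, which later work assigns to complex IV, was at 348, 474 and 309 CPM in its main cluster, with 0.44 (0.32 to 0.57) at day 1. Of these tags 98.7% were a sequence that ends in a run of thymines. A second Ndufa4 cluster, from sites further from the transcript end, had 50, 41 and 44 tags. It was not highest at day 1, with a ratio of -0.22 (-0.85 to 0.40). None of these was called. The complex I subunits with the most tags were accessory ones, Ndufb9 at 820, 899 and 695 CPM and Ndufa6 at 621, 711 and 687 CPM.

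Complexes II and III were measured through few genes. Succinate dehydrogenase was represented by Sdhc, a membrane anchor, at 348, 234 and 287 CPM, and Sdha, the flavoprotein that oxidises succinate, at 62.2, 68.8 and 49.6 CPM. Sdhc had a ratio of -0.57 (-0.72 to -0.43) at day 1 and -0.28 (-0.42 to -0.14) at day 2, and neither gene was called. In complex III the hinge protein Uqcrh, which helps cytochrome c bind, was at 918, 950 and 772 CPM in its main cluster, whose tag also matches Gm11474. Uqcrb, a small subunit near the quinone site, was at 313, 308 and 267 CPM, from a tag that 3 predicted genes share. Uqcrc1, a core protein, was at 343, 372 and 321 CPM. All 3 were lowest at day 2, with day 2 ratios of -0.25, -0.23 and -0.10.

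The second Uqcrh cluster held the exon 1 tag alone, and it behaved differently. It was at 50.1, 15.2 and 35.6 CPM (141, 41 and 97 tags), low at day 1 only. It fell at day 1, with a ratio of -1.71 (-2.26 to -1.21, adjusted p = 1.4e-11, exact test), and rose from day 1 to day 2, with 1.22 (0.68 to 1.79, adjusted p = 4.2e-05, exact test). With both clusters added, the Uqcrh ratios were -0.01 at day 1 and -0.26 at day 2 over day 1. Both calls thus rest on a site with few of the gene's tags.

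**Figure D3:**
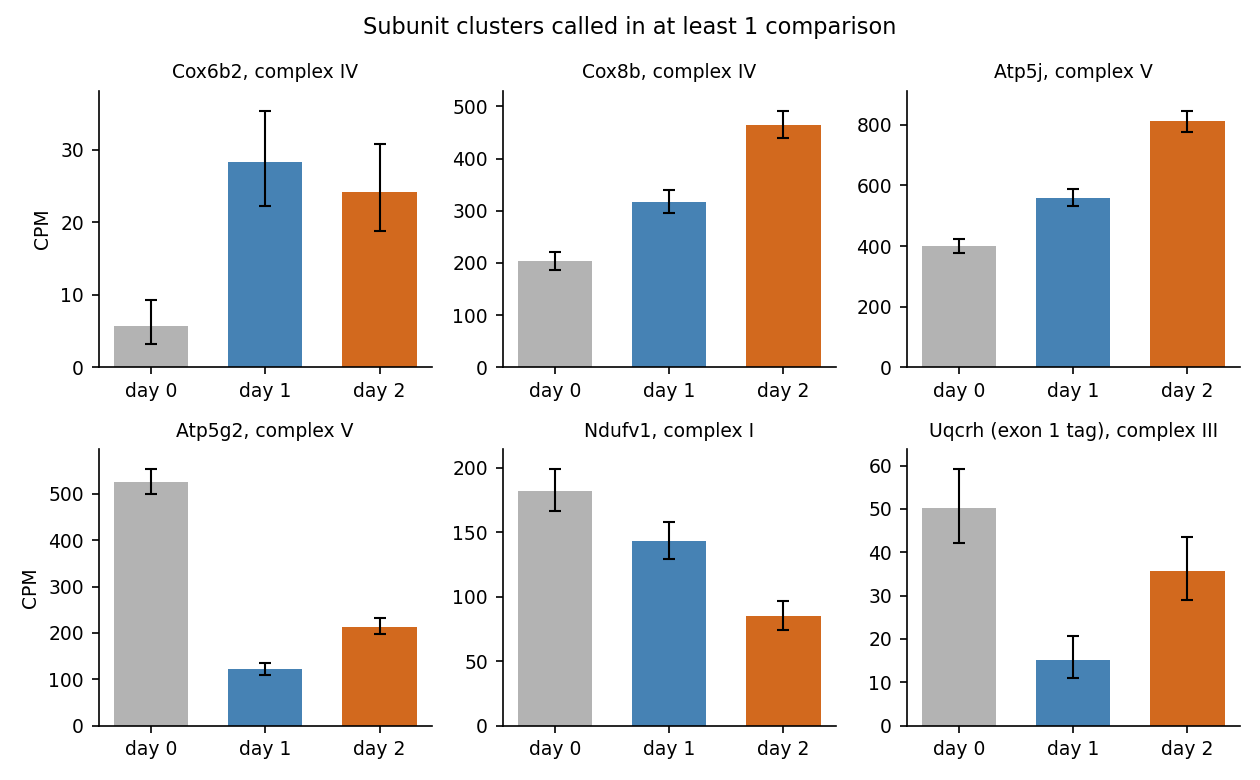
CPM of the 6 clusters called in at least 1 comparison, in the day 0, day 1 and day 2 libraries, with exact 95% Poisson intervals that cover counting error only; each axis starts at 0. Cox8b and Atp5j climb over the 3 days, Ndufv1 declines, Atp5g2 and the exon 1 tag of Uqcrh are lowest at day 1, and Cox6b2 is low at day 0.

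Sites within a gene did not always move together elsewhere either. Of the Ndufb8 tags, those at the exon 4 site, which Gm20538 shares, numbered 577, 371 and 262 at days 0, 1 and 2. The exon 5 tag nearest to the transcript end numbered 22, 29 and 28, and a second exon 5 tag 35, 33 and 31. The summed Ndufb8 ratio of -0.88 (-1.07 to -0.69) at day 2 therefore came from the shared site, and the gene's own sites in the 3′ UTR were near flat. Ndufb8 is an accessory subunit of the membrane arm. In Atp5a1 the tags at the site nearest to the transcript end numbered 1552, 1684 and 1766. Those of the next frequent 3′ UTR site numbered 746, 878 and 571, and those of an exon 11 site 404, 243 and 208. The last site was lower at each later day while the first was higher.

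Calls among genes that build or feed the chain are set beside those of all clusters tested. Of these, 2.8% were called at day 1 over day 0, 6.4% at day 2 over day 0 and 2.9% at day 2 over day 1. Of 11 tested clusters of complex I assembly factors and 14 of other electron carriers and ubiquinone synthesis, 0 were called in any comparison. Of 25 clusters of assembly factors for complexes II to V, Bcs1l rose at day 1, from 7.46 to 23.05 CPM, with 17.3 CPM at day 2. It places the iron-sulphur protein into complex III. Of 19 clusters of citric acid cycle enzymes, Fh1 (fumarase) and Suclg1 (a subunit of succinyl-CoA ligase) fell at day 2, beside 3.03% of all clusters. Fh1 was at 54.7, 38.7 and 23.1 CPM and Suclg1 at 369, 229 and 176 CPM in its main cluster, each lower at each later day, as Ndufv1 was. Of 15 clusters of fatty acid oxidation genes, Cpt1b, the muscle form of the enzyme that starts import of fatty acids, rose at day 1, at 28.8, 63.2 and 42.6 CPM. Its widely expressed counterpart Cpt1a was at 122, 152 and 127 CPM and was not called.

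A list of carriers and channels of the mitochondrial membranes, with the creatine kinase Ckmt1, had 0 higher and 3 lower of 11 clusters at day 1, and 0 higher and 4 lower at day 2, beside 1.35% and 3.03% of all clusters that fell. Ucp2, an uncoupling protein of the inner membrane, fell at both days, at 1148, 528 and 476 CPM. Vdac2, a channel of the outer membrane, fell at both days in 2 clusters, the larger at 250, 110 and 122 CPM. Slc25a3, which brings phosphate to the ATP synthase, was at 42.3, 56.5 and 19.5 CPM and fell at day 2 against both earlier days. Slc25a4, the ADP and ATP exchanger common in muscle, was at 771, 792 and 618 CPM in its main cluster and was not called. Ckmt1, which makes phosphocreatine in the mitochondria, was at 253, 301 and 210 CPM and was not called. The list's median ratio was 0.17 at day 1 and -0.69 at day 2. Of 12 clusters of regulators of mitochondrial gene expression, 0 rose and Gabpb1 fell at both days, at 23.1, 7.07 and 6.61 CPM. It is a subunit of GABP, also called nuclear respiratory factor 2. Tfam, which packs and transcribes mitochondrial DNA, was at 85.0, 63.6 and 44.1 CPM (-0.94 at day 2) and was not called. Nrf1 was at 13.9, 13.8 and 15.1 CPM.

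**Figure D4:**
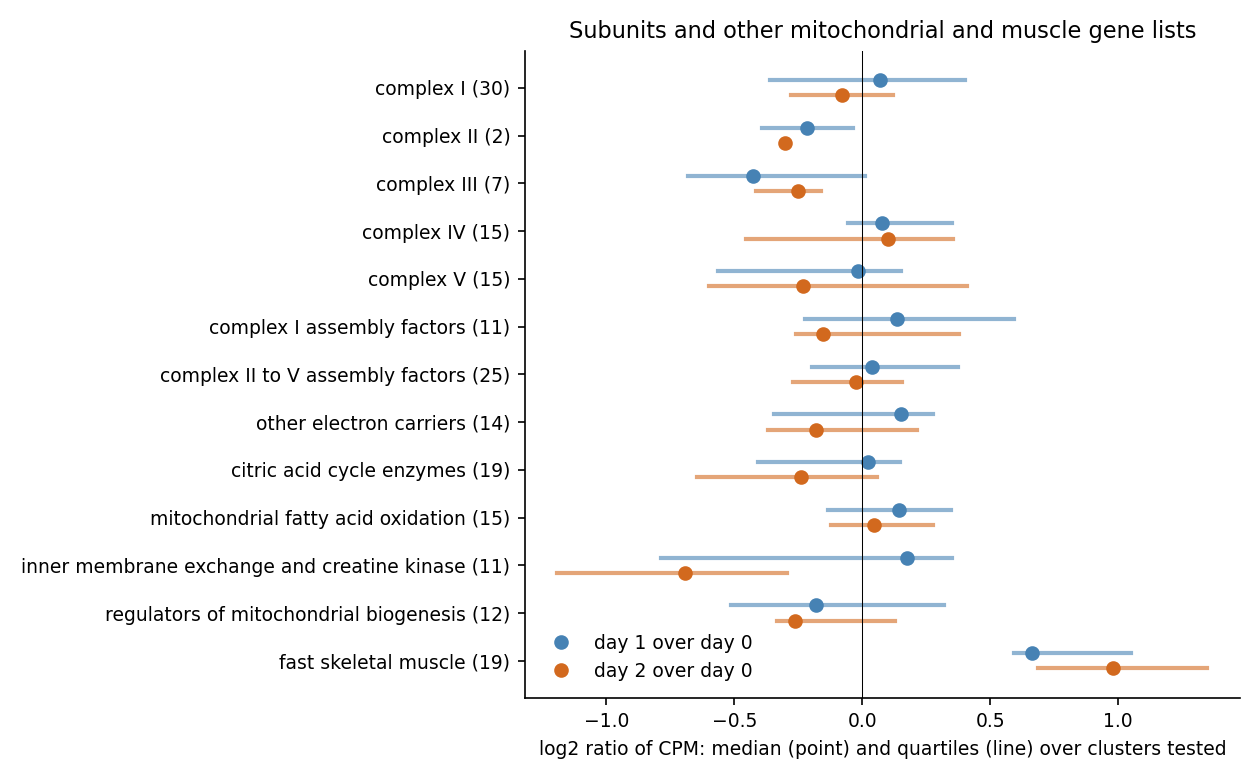
Median (point) and quartiles (line) of the log2 ratios at day 1 and day 2 over day 0 for the 5 complexes, 7 other mitochondrial lists and fast skeletal muscle genes, with the number of clusters tested in brackets. The mitochondrial medians lie within about 0.7 of 0, and the fast muscle medians are 0.66 and 0.98.

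The promoters of the members were described by words known from regulators of these genes. RefSeq windows from 250 bases before to 50 bases after a transcript start (GRCm38.p6) could be matched for 52 of the 64 genes. The word GCATGCG, taken from the middle of the site of NRF1, occurred on either strand in 7 of 52 member genes and in 4.01% of 27025 genes. The word CCGGAAG, recognised by ETS factors such as GABP, occurred in 12 of 52 and in 9.93%. At least one of these words was found in 16 of 52 member genes, or 30.8%, and in 13.2% of all genes. The E-box CANNTG, bound by muscle factors among many others, occurred in 34 of 52 and in 75% of all genes. The window of Cox6a1 held both GCATGCG and CCGGAAG and that of Cox8a held CCGGAAG, while those of Cox8b, Cox7a1 and Cox6b2 held neither. Cox6a2 was not matched. Atp5j held both in its windows, Atp5g2 held GCATGCG, Atp5e held CCGGAAG, and Ndufv1 held neither. No word contains another, and a match is a description of the letters in the window, not a site. GCATGCG was settled on after a longer form of the NRF1 site had been counted in the same windows, where the longer form was found in more of the member genes.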

How the data were processed

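Total RNA of whole skin gave 3 libraries, 1 per time. Per the labels' protocols, cDNA on oligo(dT) beads was cut by NlaIII, MmeI released the tags, and these were amplified by PCR and sequenced. The aligner and build were not given in the sources used here. Per the file headers, each table holds a count of tags per UniGene cluster as deposited by the authors, the copy number and site number of each tag, and TPM values that the authors computed as tags per 1000000 of all tags kept. Those kept numbered 6030092, 6070058 and 5666059, and 45.3%, 47.1% and 46.5% of these are in the tables. No tag is listed with fewer than 2 copies, so a gene not listed need not have had 0 tags.

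Clusters were named by exact match of tags to GENCODE M21 transcripts, with adenines added at the transcript end. A name needed 80% of the matched tags and 50% of all tags of the cluster. Of the members, 68 were named by tags of 1 gene and 13 by tags that other genes share. A tag that runs past the transcript end named 2 (Cox8b, Ndufs1). The other 3 (Atp5h and second clusters of Ndufb8 and Atp5c1) were named by similarity in the deposited description. None of the tags of these 3 matched a transcript exactly. Counts were scaled by TMM (edgeR 4.0.16, factors 1.03, 0.94 and 1.03), and ratios carry a pseudocount of 0.5 tags. Without replicates, edgeR's quasi-likelihood test could not be used. The exact test (scipy 1.17.1) was run on simulated Poisson counts, with no variation between animals or from PCR. That run cannot show how the test behaves where such variation is present. PCR copies are not independent molecules. The members, gene lists and tests were chosen with earlier results of these data known. Named are members called, listed isoforms and partners, and per complex the 3 with the most tags and the 2 highest and 2 lowest ratios at 20 CPM or more, and called genes of the other lists with others of high level or ratio. Of the last, Acta1, Tnnt3, Eno3, Myh2, Myh4, Tcap, Fabp4, Lep, Elovl3, Cidea, Ckmt1, Cpt1a, Slc25a4, Tfam and Nrf1 were chosen with their values seen. Alternatives were other scalings, filters, tag sets and assumed variation.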

Additional observations from a re-analysis of the deposited data

How the results depend on the processing

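For the 37 named clusters, side of the threshold and, where called, direction were kept under other scalings, filters, pseudocounts and tag sets where they could be computed, except in 4 cases. Ndufs6 was called lower at day 1 (-1.04) when scaled by all tags in the tables, where 3 members were called lower against 2. The others came with clusters of a symbol summed: Atp5j at day 2 over day 0 (0.99, no longer called), Uqcrh at day 1 (-0.01, no longer called) and Uqcrh at day 2 over day 1 (-0.26, reversed). These 3 follow from adding sites that moved differently. At day 1, the count at least 1.5-fold lower was 17 when scaled by all tags in the tables, 19 without a filter, 7 with 50 or more tags and 7 with clusters of a symbol summed, against 11. The count called lower was 1 by tags of 1 gene, which leaves out Atp5g2, and 1 with symbols summed, against 2. At day 2 over day 0, the count at least 1.5-fold higher was 12 without a filter, against 7, and 1 was called lower by tags of 1 gene, against 2. At day 2 over day 1, the count at least 1.5-fold higher was 8 when scaled by all kept tags, 8 by all tags in the tables, 14 without a filter and 3 with 50 or more tags, against 5. The count lower was 11 without a filter and 4 with 50 or more, against 7, and 0 were called higher with symbols summed, against 1. The exact test of edgeR was also run with a set coefficient of variation of 0.2 for animals (adjusted p at most 0.05). At day 1, 1 was called lower, against 2. At day 2 over day 0, 1 was called higher and 0 lower, against 3 and 2. Atp5g2 and Ndufv1 were thus no longer called at day 2. At day 2 over day 1, 0 were called higher, against 1. With 0.4, 0 were called higher or lower in any comparison. The Cox6a2 share at the 3′-most sites was 40.6% (37.4 to 43.8) at day 0 and 47.1% (44.0 to 50.2) at day 1. These intervals do not overlap, unlike those with all tags. Where not said, the cause was not tested. The Cox8b share and ratio by tags of 1 gene were not run, since its tags have no exact match. Scaling by all tags in the tables moved the median of all clusters by -0.13 at day 1 and by 0.132 between days 1 and 2, and by all kept tags it moved by 0.115 between days 1 and 2. Members with few tags are limited by depth. No paired analysis was possible because each group has 1 library.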
